A study of Mus musculus with 14 samples.

Results

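The 8 genes Trp63, Tfap2a, Tfap2c, Bnc1, Dlx3, Zfp750, Klf5 and Klf4 encode transcription factors known as regulators of stratified squamous epithelium. They were taken by symbol from a table of 22798 genes, and all 8 were found. The table came from RNA sequencing of epithelial cells of the mouse embryonic stomach at stage E14.5. The mouse stomach has a forestomach, whose lining becomes stratified and squamous, and a hindstomach, whose lining becomes columnar and glandular. The 14 libraries fell into 4 groups by region and Gata4 genotype, where GATA4 is a zinc-finger factor of the hindstomach endoderm. The hindstomach was represented by 3 controls of a Gata4 knockout (labelled G4 cKO control) and 5 mutants (G4 cKO mutant). The forestomach was represented by 3 controls of a Gata4 knock-in (G4 cKI control) and 3 mutants (G4 cKI mutant). The labels also call both kinds of control wild type. The driver of recombination, the altered exons, the strain and any pooling of embryos were not given in the sources used here. By their genotype labels the controls of the 2 regions are of different lines, so region and line cannot be told apart.

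In a stratified squamous epithelium, proliferating basal cells lie on the basement membrane and give rise to suprabasal cells that differentiate. Trp63, the p63 gene, is the regulator that basal cells of such epithelia depend on, and the AP-2 factors act beside it at many epidermal genes. Bnc1, Dlx3, Zfp750 and Klf4 are best known from the epidermis and other squamous tissues, where Dlx3, Zfp750 and Klf4 act mainly in differentiation. Klf5 is found in proliferating cells of squamous as well as columnar epithelia.

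Levels were deposited as FPKM, a fragment count scaled to transcript length and library size, which allows genes to be compared per length. Differences below are log2 fold changes of FPKM + 1 from a limma fit of all 14 libraries. Adjusted p is the Benjamini-Hochberg value over the 12694 genes that reached 1 FPKM in 3 or more libraries, and a gene is called at an adjusted p under 0.05. All 8 factors passed that filter. Tfap2a and Dlx3 passed it through the 3 forestomach controls alone, so for these genes a difference from the forestomach controls was built into the filter. In a fit without the filter both were called between control regions (limma adjusted p = 4.56e-05 for Tfap2a and 0.000307 for Dlx3) and in the knock-in comparison (0.0129 and 0.00226).

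The targeted gene did not bear out every label. Gata4 stood at 61.5 to 65.7 FPKM in hindstomach controls. The libraries labelled knockout 1 to 5 held Gata4 at 16.9, 19.4, 13.0, 32.1 and 59.6 FPKM, the last of which is near control level. The log2 fold change of Gata4 was -1.37 over all 5 (limma adjusted p = 0.0672) and -1.68 without knockout 5 (limma adjusted p = 0.0134). Knockout 5 had the highest Gata4 of its group, so leaving it out lowers this estimate by construction and does not bear out the label. That fit, used again below, called 32.5% of all genes, against 13.2% with all 5. Gata4 ranged from 0.573 to 4.50 FPKM in forestomach controls and from 0.319 to 1.27 FPKM under the knock-in label (log2 fold change -0.75, limma adjusted p = 0.268), so every direction for these libraries rests on the label. Sequencing depth was unknown, and 9248 to 12387 genes reached 1 FPKM in a library. Across genes the deviations of a library followed transcript GC content, with slopes, in log2 units per 10% GC, from 0.590 to 0.644 in hindstomach controls. The slopes were -0.561, -0.447, -0.614, 0.0910 and 0.513 in the libraries labelled knockout 1 to 5. In forestomach controls 2, 3 and 5 they were 0.883, 0.666 and -0.631, and in the libraries labelled knock-in 1, 2 and 4 they were -0.745, -0.890 and -0.0919. A second fit took this slope as a covariate, and calls from it are given for the 8 factors and, for the gene lists, as counts. Marker sums over 15 mesenchyme genes ran from 60.0 to 193 FPKM in hindstomach controls and 279 to 791 in libraries labelled knockout. The same sums ran from 750.1 to 1239 FPKM in forestomach controls and 214 to 572 in libraries labelled knock-in. In bulk samples fewer cells of a type and less RNA per cell cannot be told apart. The epithelial gene Epcam was present in every group, with means of 382 ± 30.2 FPKM in hindstomach controls (SD, n = 3), 298 ± 72.9 in libraries labelled knockout (n = 5), 190 ± 59.8 in forestomach controls (n = 3) and 397 ± 49.8 in libraries labelled knock-in (n = 3).

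Upstream sequences from RefSeq (build GRCm38.p6, which is not the authors' build) were matched for 3 of the 8 factors, namely Klf4, Bnc1 and Tfap2a. The 250 bases before the start of Bnc1 and of Klf4 are shown because both hold a match to GCCNNNGGC, the palindromic AP-2 site, while AP-2 factors are members of the set. Both stretches are rich in G and C, at 83.6% for Bnc1 and 74.0% for Klf4, where the median of all stretches was 52.4%, and so is the site. The Bnc1 stretch is chr7:81992300-81992549 and the Klf4 stretch is chr4:55532476-55532725, both on the minus strand and written 5′ to 3′ with the match in capitals.
Bnc1: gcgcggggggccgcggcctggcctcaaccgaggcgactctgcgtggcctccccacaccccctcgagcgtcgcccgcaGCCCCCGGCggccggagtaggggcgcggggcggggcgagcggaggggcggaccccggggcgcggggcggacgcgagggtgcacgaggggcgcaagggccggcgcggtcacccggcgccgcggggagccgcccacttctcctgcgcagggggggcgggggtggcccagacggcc
Klf4: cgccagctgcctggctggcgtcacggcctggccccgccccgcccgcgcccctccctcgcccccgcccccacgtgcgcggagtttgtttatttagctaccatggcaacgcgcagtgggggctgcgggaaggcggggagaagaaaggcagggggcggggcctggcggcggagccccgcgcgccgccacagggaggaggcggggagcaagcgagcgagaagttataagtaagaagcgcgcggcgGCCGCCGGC
GCCNNNGGC, which reads the same on both strands, was found in 13.7% of 32851 upstream stretches of this length, and neither of the Tfap2a stretches held it. The GATA site, searched on both strands in the forms AGATAA or AGATAG, or with T first, TGATAA or TGATAG, was found in none of the 4 stretches of these 3 genes and in 26.5% of all. No overlap between the kinds of site arose, and a match or its absence describes these letters only.

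In control tissue, 7 of the 8 factors were higher in forestomach than in hindstomach, and Klf5 was the exception. Among all genes tested 20.3% were called between the control regions, 9.7% higher and 10.7% lower in hindstomach. The median log2 fold change was -2.35 over the 8 factors and 0.14 over all genes. All 8 factors had control groups that did not overlap, as did 41.4% of genes. For Tfap2a and Dlx3, which passed the FPKM filter through the forestomach controls alone, a difference in these counts was built into the filter. In the forestomach controls Trp63 was the most abundant factor per length, followed by Klf4, Klf5, Zfp750, Tfap2c, Bnc1, Dlx3 and Tfap2a, by mean FPKM. In the hindstomach controls Klf5 led, followed by Klf4, and the other 6 had means under 2 FPKM (range 0.0661 to 1.83).

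**Figure D1:**
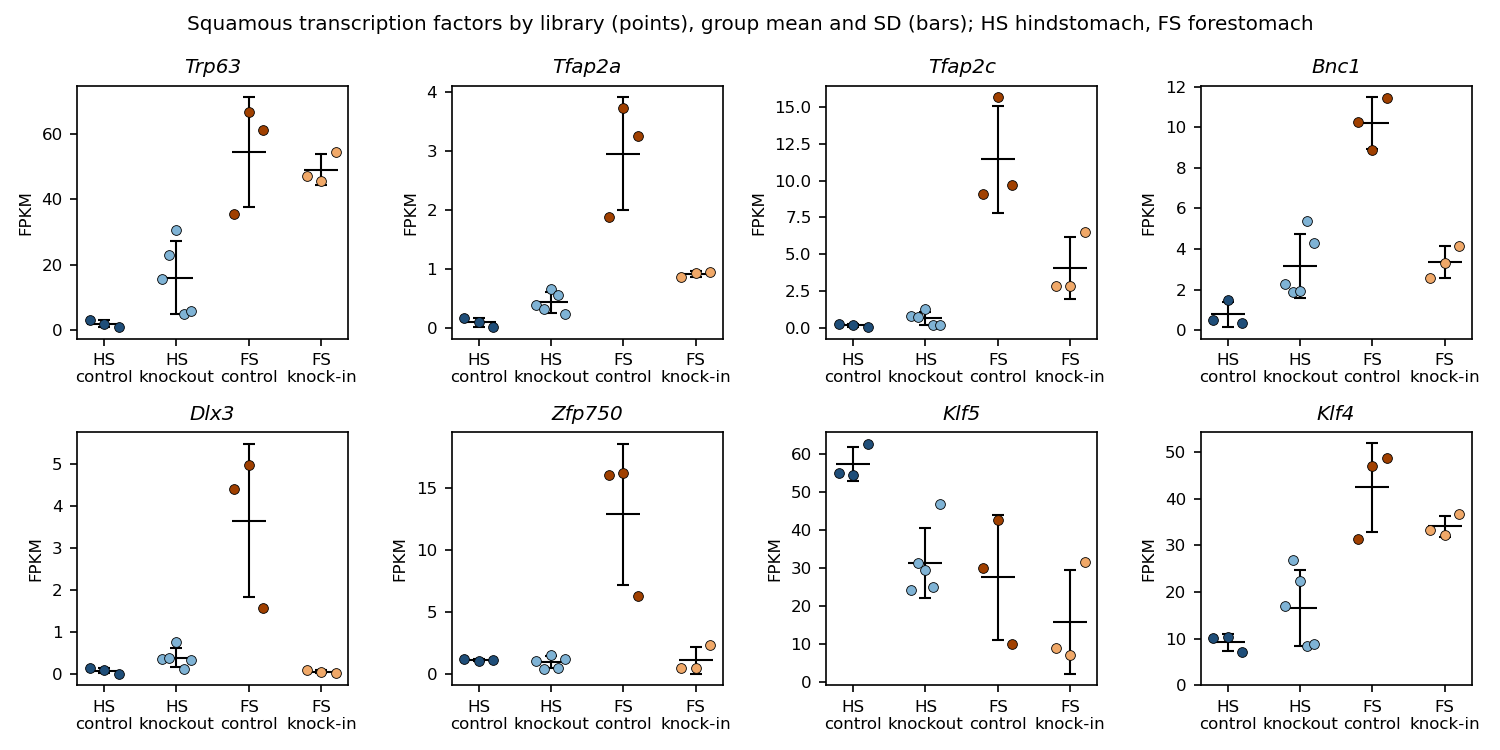
FPKM of each factor (vertical axis, linear) in each of the 14 libraries (points) by group, with the group mean and SD as bars. Trp63 and Klf4 stayed at 45.7 to 54.4 and 32.4 to 36.7 FPKM in the libraries labelled knock-in, where Dlx3 did not exceed 0.0851 FPKM.

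Trp63 stood at 35.4, 66.8 and 61.2 FPKM in forestomach controls 2, 3 and 5 and at 2.95, 1.61 and 0.949 FPKM in hindstomach controls 2, 3 and 4. Even the lowest forestomach control was far above the highest hindstomach control. The log2 fold change of hindstomach over forestomach was -4.30 (SE 0.57, limma adjusted p = 0.000235). In the libraries labelled knockout 1 to 5 Trp63 stood at 15.6, 22.9, 30.7, 4.72 and 5.81 FPKM. All 5 were above the hindstomach controls and below the forestomach controls, with knockouts 4 and 5 well under the other 3. Those 2 were also the knockout libraries with the highest Gata4 and the only ones with positive GC slopes, and the part of either in the Trp63 values was not tested. Trp63 rose by 2.34 over hindstomach controls (SE 0.51, limma adjusted p = 0.0145), and by 2.59 without knockout 5 (limma adjusted p = 0.00528), and remained lower than in forestomach controls (log2 fold change -1.96, SE 0.51, limma adjusted p = 0.0233). Under the knock-in label Trp63 stood at 47.0, 45.7 and 54.4 FPKM, inside the range of the forestomach controls. The log2 fold change there was -0.10 with a 95% interval of -1.34 to 1.13 (limma adjusted p = 0.897), and it was 0.32 after rescaling libraries to a common sum, 0.06 after quantile normalization and -0.81 with the slope covariate. The order of the means was thus forestomach control, knock-in, knockout and hindstomach control. The first and second of these did not differ beyond their spread, and the knockout group was lower than the knock-in group (log2 fold change -1.86, limma adjusted p = 0.0480). The FPKM of the whole gene does not separate the long and short amino-terminal isoforms of p63.

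Tfap2c, the AP-2 gamma gene, and Tfap2a, the AP-2 alpha gene, followed a common order in which forestomach controls were highest, knock-in libraries next, then knockout libraries and hindstomach controls. Tfap2c stood at 9.07, 15.6 and 9.67 FPKM in forestomach controls and at 0.268, 0.182 and 0.0679 FPKM in hindstomach controls. The libraries labelled knock-in held 2.84, 2.83 and 6.50 FPKM of Tfap2c, each below every forestomach control and above every hindstomach library. The log2 fold changes of Tfap2c were -3.38 between control regions (SE 0.32, limma adjusted p = 2.64e-05) and -1.34 in the knock-in comparison (SE 0.32, limma adjusted p = 0.0371). Tfap2a was lower in level at 1.89, 3.72 and 3.25 FPKM in forestomach controls, 0.865, 0.944 and 0.957 in knock-in libraries and 0.0219 to 0.167 in hindstomach controls. Its knock-in libraries were close together and did not reach the forestomach controls. Its log2 fold changes were -1.82 between control regions (SE 0.19, limma adjusted p = 4.19e-05) and -1.01 in the knock-in comparison (SE 0.19, limma adjusted p = 0.0142).

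In the libraries labelled knockout 1 to 5 Tfap2c stood at 0.831, 0.727, 1.27, 0.187 and 0.231 FPKM. Knockouts 4 and 5 lay within the hindstomach control range, and the log2 fold change of 0.45 did not pass (limma adjusted p = 0.241, 95% interval -0.18 to 1.08). Tfap2a ranged from 0.240 to 0.672 FPKM, above all hindstomach controls but not called (log2 fold change 0.38, limma adjusted p = 0.12). With a pseudocount of 0.1 in place of 1, Tfap2a passed at 1.44 (limma adjusted p = 0.0321). Both AP-2 genes remained below forestomach controls in the knockout libraries, Tfap2c at a log2 fold change of -2.92 (limma adjusted p = 7.22e-05) and Tfap2a at -1.44 (limma adjusted p = 0.00024). Tfap2c was also lower in knockout than in knock-in libraries (log2 fold change -1.58, limma adjusted p = 0.007), whereas for Tfap2a that difference of -0.43 did not pass (limma adjusted p = 0.151). The 3 other AP-2 paralogs did not pass the FPKM filter. Tfap2b did not exceed 0.178 FPKM in any library, Tfap2d was listed at 0 in all 14 and Tfap2e was above 0 in 1 library.

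Bnc1 encodes basonuclin 1, a zinc-finger protein of basal keratinocytes and germ cells. It stood at 10.3, 8.88 and 11.4 FPKM in forestomach controls, 2.57, 3.31 and 4.16 in knock-in libraries and 0.499, 1.49 and 0.341 in hindstomach controls. Bnc1 stood at 2.28, 1.90, 1.92, 5.40 and 4.29 FPKM in knockouts 1 to 5. All 5 exceeded the hindstomach controls, and here knockouts 4 and 5 were the highest, the reverse of Trp63, Tfap2c and Klf4. Bnc1 was lower in control hindstomach than in control forestomach (log2 fold change -2.70, SE 0.34, limma adjusted p = 0.000154). It rose in the knockout comparison by 1.20 (SE 0.30, limma adjusted p = 0.0247; 1.10 and 0.0242 without knockout 5) and fell in the knock-in comparison (log2 fold change -1.37, SE 0.34, limma adjusted p = 0.0392). The knock-in and knockout groups, neighbours in its order, overlapped (log2 fold change -0.13, limma adjusted p = 0.773, 95% interval -0.78 to 0.53). Its paralog Bnc2 stood at 4.35 to 7.18 FPKM in forestomach controls and 0.328 to 1.37 in hindstomach controls. Bnc2 also rose in the knockout comparison, by 1.11 (limma adjusted p = 0.0387), a call that ended with the slope covariate (0.92, limma adjusted p = 0.102).

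The genes most like Bnc1 included Wt1, a defining gene of the mesothelium, the outer lining of the stomach. Of the genes whose log2 values were most like those of Bnc1 over the 14 libraries, Wnt2b had a Pearson r of 0.953, Tmem108 0.951, Aff3 0.949, Podxl 0.937 and Wt1 0.932. Wt1 averaged 37.5 FPKM in forestomach controls, 13.7 in knock-in libraries, 6.52 in knockout libraries and 1.82 in hindstomach controls. Of the 7 mesothelial genes measured and tested, 5 were lower and 1 was higher in the hindstomach controls, 3 rose and 1 fell in the knockout comparison, and 3 fell in the knock-in comparison. Their summed level ran from 143 to 397 FPKM in forestomach controls, 33.6 to 105 in knock-in libraries, 30.6 to 124 in knockout libraries and 118 to 160 in hindstomach controls. Most of the highest sums was Krt19, a keratin also abundant in epithelium, at 280 of 397 FPKM in forestomach control 2 and 122 of 155 in hindstomach control 2, so the sum does not follow Wt1. In the covariate fit the counts stayed at 5 lower and 1 higher, 3 higher and 1 lower, and 3 lower, but not for the same genes throughout, since Lrrn4 in the knockout comparison (limma adjusted p = 0.0582) and Upk3b in the knock-in comparison (limma adjusted p = 0.0870) no longer passed. The gene that went the other way in the first 2 comparisons was Msln, higher in control hindstomach (log2 fold change 3.98) and lower in knockout libraries (-3.06). Wt1 was above 0 in all 14 libraries. The part of mesothelium in the Bnc1 differences was not tested.

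**Figure D2:**
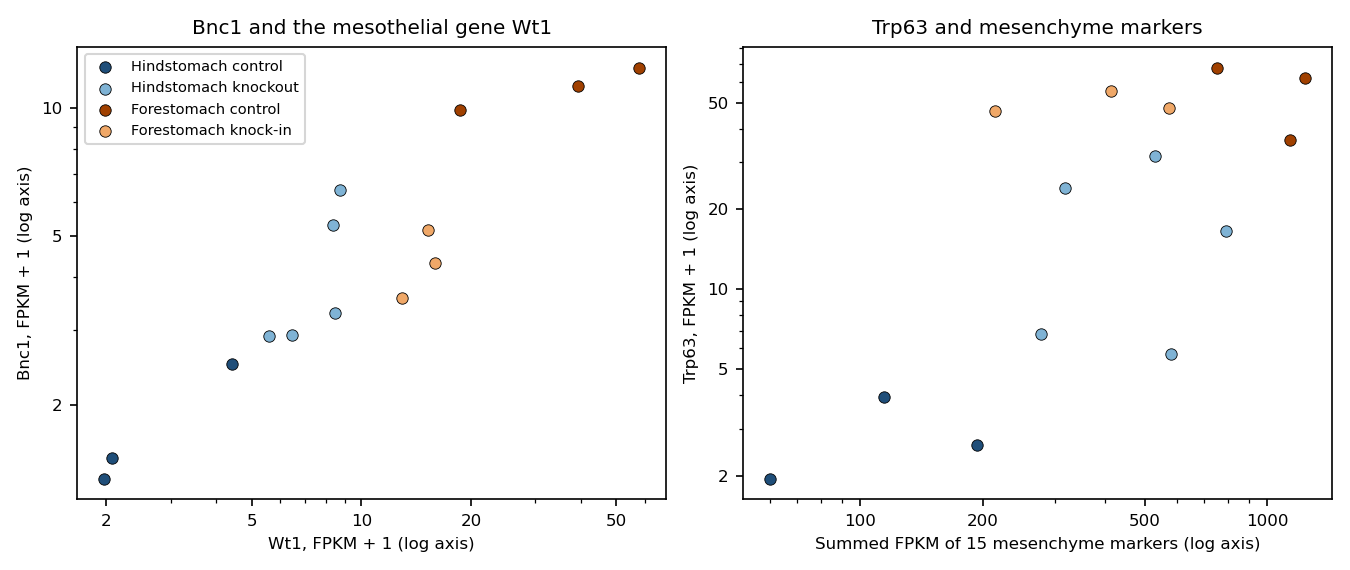
Left, Bnc1 against Wt1, both as FPKM + 1 on log axes. Right, Trp63 as FPKM + 1 against the summed FPKM of 15 mesenchyme markers, on log axes, with 1 point per library coloured by group. Forestomach controls lay highest for Bnc1 and Wt1, and the knock-in libraries held Trp63 at 45.7 to 54.4 FPKM with mesenchyme sums of 214 to 572.

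Dlx3 and Zfp750 are factors of the differentiating squamous layers, a homeodomain protein and a zinc-finger protein. Under the knock-in label both lay at levels seen in hindstomach libraries, apart from 1 higher Zfp750 value. Dlx3 stood at 4.40, 4.98 and 1.56 FPKM in forestomach controls and at 0.0851, 0.0249 and 0.0189 FPKM in knock-in libraries. Zfp750 stood at 16.1, 16.3 and 6.32 FPKM in forestomach controls and at 0.438, 0.472 and 2.32 FPKM in knock-in libraries. The groups did not overlap for either gene, and forestomach control 5 was the lowest of its group for both. Dlx3 fell in the knock-in comparison (log2 fold change -2.06, SE 0.27, limma adjusted p = 0.00169), and so did Zfp750 (log2 fold change -2.75, SE 0.39, limma adjusted p = 0.00289). Forestomach control 5 and every knock-in library had negative GC slopes, that of knock-in 4 being the weakest at -0.0919. With the slope as a covariate both calls held, at -1.80 (limma adjusted p = 0.00448) and -2.20 (limma adjusted p = 0.00473). The slope comes from these same data and in part runs with the groups, so that fit is no independent check. In the order of the means the knock-in libraries did not differ from hindstomach controls beyond their spread, with a log2 fold change of -0.03 for Dlx3 (95% interval -0.61 to 0.55) and -0.14 for Zfp750 (95% interval -0.99 to 0.71).

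Between control regions Dlx3 differed by -2.03 (SE 0.27, limma adjusted p = 0.000228) and Zfp750 by -2.62 (SE 0.39, limma adjusted p = 0.000536). Dlx3 was listed at 0 in hindstomach control 4 and at 0.123 and 0.0750 FPKM in hindstomach controls 2 and 3, while Zfp750 stood at 1.03 to 1.19 FPKM. In the libraries labelled knockout Dlx3 ranged from 0.120 to 0.744 FPKM (log2 fold change 0.36, limma adjusted p = 0.256, 95% interval -0.16 to 0.88). Zfp750 ranged from 0.392 to 1.52 FPKM there (log2 fold change -0.18, limma adjusted p = 0.697, 95% interval -0.94 to 0.58), and its estimate turned to 0.33 with the slope covariate. Both remained lower than in forestomach controls, Dlx3 at a log2 fold change of -1.67 (limma adjusted p = 0.000879) and Zfp750 at -2.80 (limma adjusted p = 0.00035). Among the other Dlx genes, Dlx1 rose in the knockout comparison by 1.52 (SE 0.33, limma adjusted p = 0.0142), from 0.792 to 2.81 FPKM in controls to 3.50 to 8.88 FPKM. Dlx2 rose by 0.82 (limma adjusted p = 0.0486, ended with the slope covariate at 0.169), and Dlx5 did not pass (0.59, limma adjusted p = 0.0804). None of Dlx1, Dlx2 and Dlx5 passed in the knock-in comparison, with log2 fold changes from -0.47 to -0.37. Dlx4 and Dlx6 did not pass the FPKM filter.

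Genes with the pattern most like Dlx3 and Zfp750 were in part the same keratinocyte genes, by a Pearson correlation over 14 libraries. For Zfp750 they were Krt6a (0.982), Krtdap (0.965), Krt5 (0.964), Krt13 (0.959) and Pkp1 (0.957). For Dlx3 they were Tns4 (0.964), Krtdap (0.951), Krt6a (0.948), Gal3st4 (0.938) and Mgll (0.927). Trp63 had other nearest genes, Steap1 (0.980), Trim2 (0.977), Ppp2r2d (0.972), Hoxc4 (0.969) and Scel (0.959). Those of Tfap2c included the Hox genes Hoxc6 (0.987) and Hoxc8 (0.986), then Serpinb10 (0.983), Sh3rf2 (0.981) and the ectodysplasin receptor gene Edar (0.979). For Tfap2a they were Dusp7 (0.971), Bmper (0.949), Net1 (0.948), Cd109 (0.948) and Tmprss11b (0.947). Among the 8 factors the correlation was highest between Trp63 and Klf4 (0.959) and lowest between Trp63 and Klf5 (-0.655). These values share libraries, group differences and the GC axis, and are descriptions.

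Klf4, a zinc-finger factor of differentiating epithelial cells, stood at 31.5, 47.1 and 48.8 FPKM in forestomach controls and 33.4, 32.4 and 36.7 FPKM in knock-in libraries, which overlapped. In hindstomach controls it stood at 10.1, 10.4 and 7.04 FPKM, all lower. The log2 fold change was -2.08 between control regions (SE 0.38, limma adjusted p = 0.00191). In the knock-in comparison it was -0.28 (95% interval -1.10 to 0.54, limma adjusted p = 0.559), and it was 0.14 after rescaling to a common sum, -0.10 after quantile normalization and -0.78 with the slope covariate. In the libraries labelled knockout 1 to 5 Klf4 stood at 16.9, 26.8, 22.4, 8.35 and 8.75 FPKM, the last 2 within the control range (log2 fold change 0.67, limma adjusted p = 0.154, 95% interval -0.06 to 1.40). Its neighbours in the order, knock-in above knockout, did not overlap, with a log2 fold change of -1.13 (limma adjusted p = 0.0667). The genes most like Klf4 included Hoxc4 (Pearson r 0.954), the p63 target Perp (0.952), Rin2 (0.943) and Trim2 (0.942).

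Klf5 had the opposite order of the control regions, at 55.0, 54.5 and 62.5 FPKM in hindstomach controls and 30.1, 42.5 and 10.1 FPKM in forestomach controls. The groups did not overlap, but the log2 fold change of 1.24 did not pass (SE 0.53, limma adjusted p = 0.123, 95% interval 0.09 to 2.39). It passed at 0.90 with the slope covariate (limma adjusted p = 0.0356), in a fit that called 42.6% of all genes between control regions, against 20.3% without it. Klf5 stood at 24.1, 31.2, 29.5, 25.0 and 46.9 FPKM in knockouts 1 to 5, all below the controls (log2 fold change -0.89, limma adjusted p = 0.171, 95% interval -1.92 to 0.14). With the slope covariate that estimate was 0.02. The libraries labelled knock-in 1, 2 and 4 held 9.08, 7.06 and 31.5 FPKM (log2 fold change -0.84, limma adjusted p = 0.229, 95% interval -1.98 to 0.31), and with the slope covariate the estimate was 0.15. Forestomach control 5 and knock-in libraries 1 and 2, the 3 lowest for Klf5, also had the 3 most negative GC slopes. In the fit without forestomach control 5 Klf5 passed the test in the knock-in comparison, at -1.41 (limma adjusted p = 0.0257), and without knock-in 4 at -1.45 (limma adjusted p = 0.0426). Those fits called 55.3% and 25.9% of all genes, against 5.85% with all libraries, so these calls are not particular to Klf5. The genes most like Klf5 were Zxdc (0.984), Pdlim1 (0.982), Letmd1 (0.976), Rhbdd2 (0.973) and Foxred1 (0.969). Among the 15 other Klf genes listed 12 were tested. Between control regions Klf9, Klf6, Klf10 and Klf2 were lower in hindstomach and Klf3 was higher, by 1.01 (limma adjusted p = 0.0206). In the knockout comparison Klf9, Klf12 and Klf14 rose by 0.78, 0.62 and 0.92 (limma adjusted p = 0.0455, 0.0410 and 0.0416), calls that ended with the slope covariate. No other Klf gene was called in the knock-in comparison, where the lowest limma adjusted p was 0.0816 (Klf9).

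**Figure D3:**
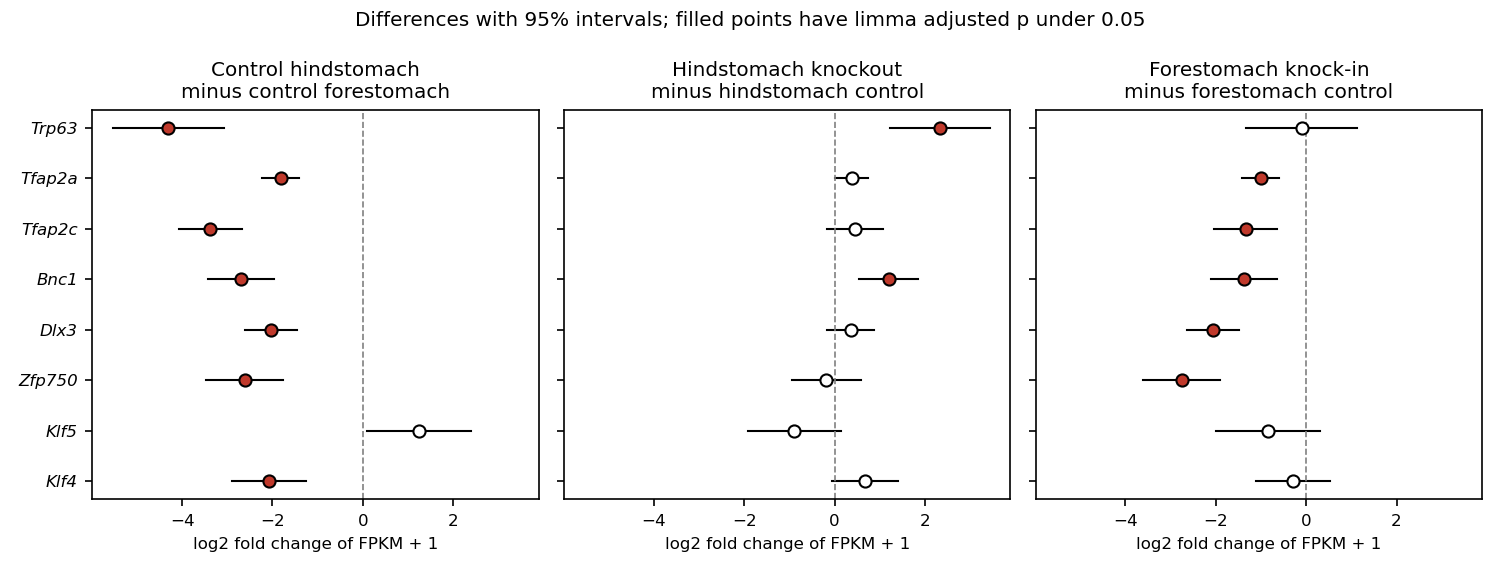
Log2 fold changes of FPKM + 1 (horizontal axis) with 95% intervals for the 8 factors in 3 comparisons, where filled points were called. Filled points number 7 between control regions, 2 in the knockout comparison and 5 in the knock-in comparison. The filled points of Tfap2a and Dlx3 are of genes that passed the FPKM filter through forestomach controls alone.

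Set side by side, the knockout comparison called 2 of the 8 factors, both higher, and the knock-in comparison called 5, all lower. Among the latter were Tfap2a and Dlx3, which passed the FPKM filter through forestomach controls alone. For these genes a difference from forestomach controls was built into the filter, here and in the other counts against those controls. Among all genes 13.2% were called in the knockout comparison, 6.96% higher and 6.28% lower, and 5.85% were called in the knock-in comparison, 2.62% higher and 3.22% lower. The median log2 fold change over the 8 factors was 0.42 in the knockout comparison, where all genes had -0.08, and -1.17 in the knock-in comparison, where all genes had -0.37. Scaling moved the median of all genes, to -0.04 (rescaled to a common sum) and 0.08 (quantile) in the knock-in comparison, and to 0.16 and 0.14 in the knockout comparison. The share of called genes that were higher was 44.9% in the knock-in comparison as deposited, 76.5% rescaled and 75.3% after quantile normalization. In the knockout comparison it was 52.6% as deposited, 66.6% rescaled, 50.8% after quantile normalization, 61.9% with the slope covariate, 63.7% with a pseudocount of 0.1, 37.3% in a fit of the hindstomach groups alone and 31.3% with a block on replicate number. Groups did not overlap for 4 of the 8 factors in the knockout comparison, against 42.6% of genes, and for 5 of 8 in the knock-in comparison, against 20% of genes. The knockout libraries remained below forestomach controls for 7 of the 8 factors, Klf5 being the exception, where 13.9% of genes were called, 8.34% higher and 5.55% lower. In the knock-in libraries 5 of the 8 factors were higher than in hindstomach controls and Klf5 was lower (log2 fold change -2.08, limma adjusted p = 0.0148). In that comparison 50.2% of all genes were called, 13.2% higher and 37% lower. Between knockout and knock-in libraries 2 of the 8, Trp63 and Tfap2c, were called, both lower in knockout, where 6.67% of genes were called, 4.97% higher and 1.7% lower. All these comparisons share libraries.

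Fits that left out 1 library kept the FPKM filter over all 14 libraries, which Dlx3 and Tfap2a passed through forestomach controls alone. For Dlx3 the calls without 1 library are thus no separate support. The knock-in calls of Dlx3 and Zfp750 held when each of the 6 forestomach libraries was left out in turn, with a highest adjusted p of 0.0124 for Dlx3 and 0.0207 for Zfp750. Those of Tfap2a, Tfap2c and Bnc1 ended under rescaling, quantile normalization, a pseudocount of 0.1 or without knock-in 1 or 2, and a fit of the forestomach libraries alone called 0 genes with limma (1932 genes and 5 factors at an unadjusted p under 0.05). Without forestomach control 2 or 3 the calls of Tfap2c and Bnc1 also ended, at adjusted p of 0.104 and 0.147 without control 2 and 0.1 and 0.0717 without control 3. In the knockout comparison Trp63 and Bnc1 did not pass without hindstomach control 4 (2.10, limma adjusted p = 0.101, and 1.03, limma adjusted p = 0.147), and Bnc1 did not pass without hindstomach control 2 (1.11, limma adjusted p = 0.115). With the slope covariate Trp63 (1.68, limma adjusted p = 0.0479) and Bnc1 (1.46, limma adjusted p = 0.0137) passed in the knockout comparison. In the knock-in comparison the same fit ended the calls of Tfap2c (-1.36, limma adjusted p = 0.0501) and Bnc1 (-1.09, limma adjusted p = 0.084).

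Ratios between factors within a library do not depend on how libraries are scaled, though they can move with GC content. The ratio of Zfp750 to Trp63 was 0.455, 0.243 and 0.103 in forestomach controls 2, 3 and 5 and 0.00932, 0.0103 and 0.0426 in the libraries labelled knock-in 1, 2 and 4. It was 0.403, 0.642 and 1.17 in hindstomach controls and 0.0171 to 0.203 in libraries labelled knockout. Each mutant group thus had a lower ratio than every control of its own region. The ratio of Tfap2c to Trp63 was also lower in each mutant group, at 0.0604 to 0.119 in knock-in libraries against 0.158 to 0.256 in their controls. It was 0.0318 to 0.0534 in knockout libraries and 0.0716 to 0.113 in hindstomach controls. The hindstomach ratios rest on low values, with Trp63 at 0.949 to 2.95 FPKM in controls. Zfp750 stood at 0.392 to 1.52 FPKM and Tfap2c at 0.0679 to 1.27 FPKM over the hindstomach libraries. In the knockout comparison Trp63 was called, but Zfp750 and Tfap2c were not (limma adjusted p = 0.697 and 0.241). A lower ratio there thus does not show a fall of Zfp750 or Tfap2c. The ratio of Dlx3 to Trp63 was 0.0255 to 0.124 in forestomach controls and 0.000348 to 0.00181 in knock-in libraries. The ratio of Klf4 to Klf5 was 1.04, 1.11 and 4.84 in forestomach controls, 1.17 to 4.59 in knock-in libraries, 0.113 to 0.191 in hindstomach controls and 0.187 to 0.859 in knockout libraries. Two-sided exact permutation tests of 3 of these ratios in 3 comparisons, 9 in all, gave p = 0.0357 for Zfp750 to Trp63 and for Tfap2c to Trp63 in the knockout comparison, the smallest p that 5 against 3 libraries allow. With 3 against 3 libraries no p can go below 0.1, which both ratios reached in the knock-in comparison. The lowest adjusted p over the 9 was 0.129. With these floors no adjusted p over the 9 could fall below 0.05, so the tests could not decide whether the ratios differed. The ratios were also chosen with values known.

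**Figure D4:**
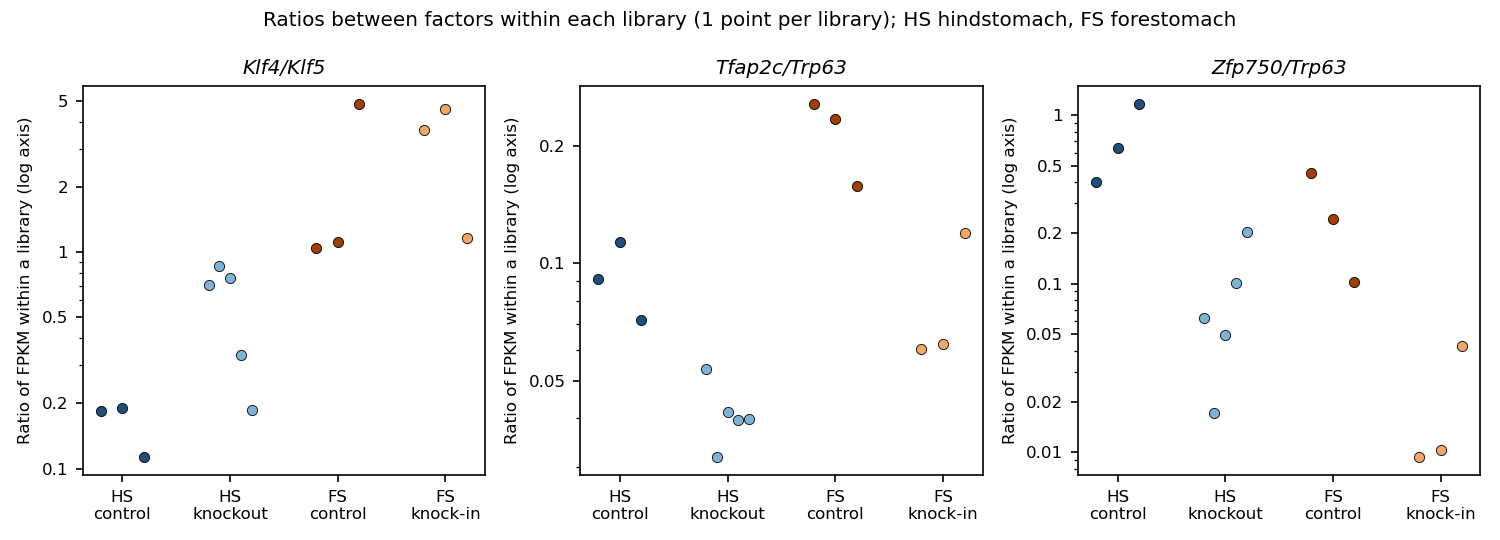
Ratio of FPKM between pairs of factors within each library (vertical axis, log scale), 1 point per library, by group. Zfp750 to Trp63 lay at 0.00932 to 0.0426 in the libraries labelled knock-in and at 0.103 to 0.455 in their controls.

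Genes known to act with or under these factors were read from lists written by hand. Among all genes 20.3%, 13.2% and 5.85% were called in the regional, knockout and knock-in comparisons. With the slope covariate these shares were 42.6%, 12.3% and 5.35%. Of 22 tested p63 targets and basal adhesion genes, 12 were lower in control hindstomach and 1 higher, with Perp, a desmosomal tetraspan protein, at -3.51 (limma adjusted p = 0.000268), the plakophilin Pkp1 at -4.18 (limma adjusted p = 0.000708) and the desmoglein Dsg3 at -2.03 (limma adjusted p = 0.00043). Only Fgfr2, a growth factor receptor of epithelia, was called in the knockout comparison (1.16, limma adjusted p = 0.0236), and it ended with the slope covariate (1.06, limma adjusted p = 0.0534). Krt5, the basal keratin, stood at 1.43 to 4.12 FPKM in knockout libraries and 0.973 to 1.94 in hindstomach controls (limma adjusted p = 0.70). In the knock-in comparison 5 of the 22 were lower and 0 higher. These included Dsg3 (-1.91, limma adjusted p = 0.00507), the hemidesmosomal collagen Col17a1 (-3.05, limma adjusted p = 0.0219), Pkp1 (-3.09, limma adjusted p = 0.024) and Krt5 (-4.72, limma adjusted p = 0.0278). Krt5 stood at 301, 381 and 22.4 FPKM in forestomach controls and at 1.74, 0.959 and 26.3 FPKM in knock-in libraries, which overlapped. Perp did not pass (-0.43, limma adjusted p = 0.474). With the slope covariate Dsg3 and Col17a1 passed and the other 3 did not, while 15 were lower and 1 higher between control regions and 2 higher in the knockout comparison. The list medians were -1.10, 0.19 and -0.63 in the regional, knockout and knock-in comparisons, where all genes had 0.14, -0.08 and -0.37.

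Of 15 tested genes of suprabasal differentiation, 9 were lower in control hindstomach and 0 higher, led by Scel (-2.60), Krt6a (-3.82) and Lor (-2.01), with limma adjusted p of 2.69e-05, 0.000175 and 0.000179. In the knock-in comparison 3 fell and 0 rose, namely Krt6a (-3.45, limma adjusted p = 0.00262), the cornified envelope gene Lor (-1.28, limma adjusted p = 0.0196) and the mucosal keratin Krt13 (-5.22, limma adjusted p = 0.0289, ended with the slope covariate at 0.0572). In the knockout comparison Scel, the sciellin gene, rose by 1.07 (limma adjusted p = 0.0121) and the desmocollin Dsc2 fell by 1.22 (log2 fold change -1.22, limma adjusted p = 0.0195). The covariate fit gave 11 lower between control regions, 1 higher and 1 lower in the knockout comparison and 2 lower in the knock-in comparison. The list medians were -1.70, -0.17 and -1.24. Of 16 other squamous and foregut transcription factors tested, Gata3 was called in all 3 comparisons. It was lower in control hindstomach (-1.57, limma adjusted p = 0.000225), rose in the knockout comparison (0.80, limma adjusted p = 0.0183) and fell in the knock-in comparison (-1.60, limma adjusted p = 0.00169). Tbx1 (0.93, limma adjusted p = 0.038) and Pax9 (1.09, limma adjusted p = 0.0492) rose in the knock-in comparison, and the Pax9 call ended with the slope covariate (limma adjusted p = 0.12). In total 9 of the 16 were lower and 1 higher in control hindstomach, where Isl1 was the higher one (2.31, limma adjusted p = 0.000347). In the knockout comparison Elf3, an epithelial Ets factor, fell (-2.99, limma adjusted p = 0.0322). With the slope covariate 9 were lower and 3 higher between control regions, 2 rose and 1 fell in the knockout comparison, and 1 rose and 1 fell in the knock-in comparison. The list medians were -0.93, 0.17 and -0.20. The p53 paralog of Trp63, Trp53, did not pass in any of the 3 comparisons, and Trp73 did not exceed 0.330 FPKM.

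Markers of some other cell types moved with these comparisons. Among all genes 9.7% were higher and 10.7% lower in control hindstomach. In the knockout comparison 6.96% rose and 6.28% fell, and in the knock-in comparison 2.62% rose and 3.22% fell. Of 14 tested mesenchyme genes 12 were lower in control hindstomach, 9 rose in the knockout comparison and 2 fell in the knock-in comparison, with Dcn, a fibroblast proteoglycan, at -3.66 and 2.52 in the first 2 and Col1a1 at -2.16 in the third. With the slope covariate 14 were lower between control regions, 5 rose in the knockout comparison and 1 fell in the knock-in comparison, where Col1a1 did not pass (-1.66, limma adjusted p = 0.0529). Of 9 enteric neural crest genes 3 rose in the knockout comparison and 1 was higher in control hindstomach (Erbb3), where the covariate fit also called 1 lower. Sox10, a defining gene of that list, was listed at 0 in knock-in 2. Of 7 endothelial and 8 leukocyte genes tested, 1 each was lower in control hindstomach, Emcn and Fcer1g, near the share of all genes. None passed in the mutant comparisons. When the slope was a covariate, 5 endothelial genes were lower and 1 higher and 6 leukocyte genes were lower between control regions, and 1 leukocyte gene was higher in the knockout comparison. The covariate fit called 42.6% of all genes between control regions, against 20.3% without the covariate, and 12.3% in the knockout comparison. Of 8 epithelium genes 3 were higher in control hindstomach, Epcam among them (1.06, limma adjusted p = 0.0157), 0 were called in the knockout comparison and 1, Epcam, rose in the knock-in comparison (1.11, limma adjusted p = 0.0393, ended with the slope covariate at 0.0878). The other epithelium genes had log2 fold changes from -1.39 (Krt8) to 0.33 (Cdh1) in the knock-in comparison. The list medians were 1.51, -1.37 and 0.06 in the regional, knockout and knock-in comparisons. Under the covariate 5 were higher between control regions and 2 rose in the knock-in comparison. The part of these cells in the values of the 8 factors was not tested.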

How the data were processed

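RNA was sequenced from epithelial cells of embryonic mouse stomach in 14 libraries made, per the labels' protocols, with a directional NEBNext kit. FPKM values, 1 column per library, were deposited by the authors in a single table. The submitters' processing notes name the build mm9. The aligner, the counting program and the handling of paralogs, strand and overlapping genes were not given in the sources used here. Of 22906 entries 108 exact duplicates were dropped. The 12694 genes reaching 1 FPKM in 3 or more libraries were analysed as log2(FPKM + 1), which understates changes of low genes, with limma 3.58.1 in R 4.3.3 (statmod 1.5.0; eBayes with trend and robust options, 1 mean per group), checked on simulated data. Noise in that simulation was independent between genes and libraries, so the check does not cover the shared GC axis. Single ratios were compared by exact permutation with scipy 1.17.1. The labels do not say whether samples of a group came from separate embryos, so p-values reflect only sample-to-sample spread, possibly technical. No pair of libraries had identical values for more than 0.0057% of the genes above 0 in either.

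The members and lists were chosen with earlier results of these data known. Named were all 8 members, their listed paralogs, Gata4, up to 3 called genes per list and comparison with the smallest adjusted p, and the 5 genes most correlated with each member (predicted gene models left out); a few genes under this rule are not reported here. Outside this rule, Krt5 and Perp in the mutant comparisons, Krt8, Krt19, Cdh1, Sox10 and the ratios were chosen with values known. Transcript GC content came from GENCODE M21 (GRCm38), matched for 99.3% of genes. The GC slope nearly follows the main axis of the same data and is no independent check. Alternatives were another pseudocount, other filters, rescaling, quantile normalization, eBayes without trend, fits restricted to the compared groups, the GC slope, a block on replicate number and omission of single replicates.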

Additional observations from a re-analysis of the deposited data

How the results depend on the processing

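Between control regions the 7 calls among the 8 factors held under every alternative run, and the number of genes called moved from 2583 to 1431 in a fit of these groups alone, 5404 with the GC slope covariate and between 1532 and 2680 without 1 replicate. In the knockout comparison 1680 genes became 4991 in a fit of the compared groups alone and between 267 and 4124 without 1 replicate, while the factors called went from 2 to 4 in the fit of the groups alone and to between 0 and 2 without 1 replicate (at 0, 2 factors had an unadjusted limma p under 0.05). In the knock-in comparison 742 genes became 489 after quantile normalization, 0 in the fit of the groups alone, and between 118 and 7015 without 1 replicate. The factors called there went from 5 to 2 with a pseudocount of 0.1, to 2 after rescaling, to 2 after quantile normalization, to 3 with the GC slope covariate, to 0 in the fit of the groups alone and to between 2 and 6 without 1 replicate, where the 6 include Klf5 without forestomach control 5 or knock-in 4. The causes were not tested.

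Replicate numbers gave no clear sign of pairing. Deviations of same-numbered hindstomach libraries correlated at 0.03, 0.06 and -0.25, and 2 of 6 libraries correlated best with their own number. Same-numbered controls of the 2 regions correlated at 0.28 and -0.14. So few libraries, which also share the GC axis, cannot exclude a pairing. With a replicate block 5427 genes were called in the knockout comparison, where Trp63 passed (2.59, limma adjusted p = 0.0132), Bnc1 did not (1.15, limma adjusted p = 0.0792) and Klf4 and Klf5 did (0.86 and -0.98). Between control regions the block called 2892 genes and the same number of factors. No paired analysis was possible for the knock-in comparison because these groups share fewer than 2 numbers. Levels under 2 FPKM, at unknown depth, limit what can be said of Dlx3, Tfap2a, Tfap2c and Zfp750 in hindstomach, and of Bnc1 in hindstomach controls.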
